A study of Mus musculus with 6 samples.

Results

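The 10 genes described here are Ccbe1, the secreted cofactor CCBE1, Adamts3, the protease it works with, the ligands Vegfa, Vegfb, Vegfc and Vegfd, the receptors Flt1 and Kdr and the co-receptors Nrp1 and Nrp2. They were chosen by name from the 26532 genes of the table because Ccbe1 and Kdr were higher in the ORAI2 libraries than in the GFP libraries, so the values of these genes in that comparison are a description with no test. All 10 were in the table. Of these, 9 passed the filter on low counts and 1, Adamts3, had no count in any library.

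RNA was sequenced from mouse embryonic fibroblasts (MEFs), cells grown from mouse embryos, whose cell type label is mesenchymal stem cells and whose treatment label, in both groups, is osteogenic differentiation. The GFP group was 3 libraries of wild-type (WT) MEFs with an adenovirus for green fluorescent protein, AdGFP, and the ORAI2 group was 3 libraries with the genotype label ORAI2 Overexpression and the adenovirus AdORAI2. ORAI2 forms part of the pore of store-operated calcium channels, and the series asks how it acts when BMP9, a signalling protein of bone, drives the cells toward osteoblasts. BMP9 dose, time in culture and the number of separate cultures are not given in the labels used here, so a p-value here speaks only of the spread among libraries, and that spread may be technical.

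Vascular endothelial growth factors are secreted ligands that act through receptor tyrosine kinases, mainly on the cells that line vessels. VEGF-A binds FLT1 and KDR, VEGF-B binds FLT1, and VEGF-C and VEGF-D act mainly on FLT4, the receptor of lymphatic vessels. VEGF-C is made as a precursor that ADAMTS3 cleaves with the help of CCBE1, and neuropilins hold both VEGF ligands and class 3 semaphorins at the cell surface. In bone, cells of the osteoblast lineage secrete VEGF-A, which links vessel growth to bone formation.

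Total counts per library lay between 18526884 and 18844436. Orai2 was 59.2-fold higher in the ORAI2 libraries, at 2440, 2830 and 3660 CPM (counts scaled to the library total) against 48.7, 48.9 and 53.4. The edgeR quasi-likelihood test was run on 13764 genes, and 5909 of them (42.9%) had a p under 0.05 after Benjamini-Hochberg adjustment over all tested genes, with 20.8% higher and 22.1% lower. All 13 tested markers of fibroblasts and mesenchymal cells fell, and the summed level of the 15 in the table was 8490 to 9030 CPM in the GFP libraries and 6660 to 7210 CPM in the ORAI2 libraries. Most of that sum was Fn1, at 5792 and 5177 CPM on average (1.12-fold lower), and Col1a1 went from 1260 to 486 CPM. Thy1 and Fap, which also mark fibroblasts, had at most 10 counts in a library.

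The sequences before the start sites of Kdr and Nrp1, the receptor gene that was higher and the co-receptor gene that was lower, are shown with that of Vegfa, the most abundant ligand. Each is the 250 bases before the start given by RefSeq on GRCm38.p6, 5′ to 3′, with the GC box GGGCGG (read on both strands) in capitals.
Kdr, chr5:75978456-75978705, minus strand: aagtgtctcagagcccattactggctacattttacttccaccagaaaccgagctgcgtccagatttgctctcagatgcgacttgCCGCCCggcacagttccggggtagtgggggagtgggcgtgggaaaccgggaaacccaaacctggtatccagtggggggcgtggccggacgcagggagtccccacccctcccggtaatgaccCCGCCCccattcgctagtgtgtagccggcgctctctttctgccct
Nrp1, chr8:128358823-128359072, plus strand: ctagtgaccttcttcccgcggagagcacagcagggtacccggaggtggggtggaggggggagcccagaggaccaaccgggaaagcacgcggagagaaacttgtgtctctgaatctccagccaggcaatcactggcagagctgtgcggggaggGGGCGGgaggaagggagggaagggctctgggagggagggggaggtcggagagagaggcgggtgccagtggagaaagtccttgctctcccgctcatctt
Vegfa, chr17:46032378-46032627, minus strand: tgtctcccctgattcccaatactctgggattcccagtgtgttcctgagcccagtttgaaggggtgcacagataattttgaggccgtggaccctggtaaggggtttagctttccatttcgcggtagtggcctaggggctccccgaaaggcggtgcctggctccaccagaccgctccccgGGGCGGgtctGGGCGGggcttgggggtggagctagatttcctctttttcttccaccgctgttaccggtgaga
Kdr and Vegfa held 2 GC boxes each and Nrp1 held 1. Of 32851 RefSeq promoters of this length, 32.7% held at least 1. The AP-1 site TGANTCA and the hypoxia response core ACGTG, read on both strands, were in none of these 3 windows. They were in 6.75% and 16.6% of all such promoters. The NFAT core GGAAA, which is in 55.6% of promoters, was found 2 times each in Kdr and Vegfa and 1 time in Nrp1. The GC content was 61.6% for Kdr, 64.4% for Nrp1 and 59.2% for Vegfa, against a median of 52.4%. These matches describe the letters only. RefSeq gives Vegfa another start further downstream. The window before that start, not printed here, held 1 hypoxia response core and 1 GC box. However, 67 of its 250 bases lay in an annotated exon, so a match there need not be promoter sequence.

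Among the genes of VEGF-C activation, Ccbe1 was about 3-fold higher in the ORAI2 libraries, while its protease Adamts3 had no count and its substrate Vegfc did not pass the test. Ccbe1 had 906, 1015 and 948 counts with GFP and 3050, 2541 and 2854 counts with ORAI2, or 48.6, 54.3 and 50.7 CPM against 164, 136 and 154 CPM. The lowest ORAI2 library lay far above the highest GFP library. The mean went from 51.2 ± 2.88 to 151 ± 14.5 CPM (SD, n = 3 each), 2.96-fold, with a log2 fold change of 1.56 (SE 0.07). By log2 fold change it ranked 28 from the top of 13764 tested genes. In the mouse GENCODE annotation an antisense gene model, Gm15958, overlaps exons of Ccbe1, and since the use of strand in counting is not given, reads of both cannot be told apart.

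Adamts3 had 0 counts in all 6 libraries, and a count of 0 allows a level of up to 0.159 to 0.162 CPM per library (3 counts, counting error only). Of the related proteases of procollagen, Adamts2 was scarce, while Adamts14 had 74 to 143 counts per library. Adamts2 had between 8 and 19 counts per library and did not pass (log2 fold change -0.65, edgeR adjusted p = 0.146), and Adamts14 fell from 6.77 ± 0.78 to 5.0 ± 1.08 CPM (1.35-fold lower, adjusted p = 0.0364). Vegfc was at 28.9, 27.7 and 27.1 CPM in the GFP libraries and at 28.3, 25.8 and 30.8 CPM in the ORAI2 libraries. The groups overlapped. Its log2 fold change of 0.02 had a 95% interval from -0.13 to 0.17 (adjusted p = 0.841). Flt4 encodes a receptor of VEGF-C and is no member of the group. Its values also overlapped, at 10.7, 11.8 and 11.4 against 11.8, 11.7 and 10.2 CPM (log2 fold change -0.01, 95% interval from -0.21 to 0.19, adjusted p = 0.939).

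Of the 7 tested members other than Ccbe1 and Kdr, 3 fell and 4 did not pass, beside 42.9% of all genes called. None of the 7 rose in edgeR, DESeq2 or limma-voom, though Flt1 was higher at an unadjusted p of 0.0473 in edgeR. Their groups did not overlap in 3 of the 7, where this held for 52.8% of all tested genes. The members that fell were the ligands Vegfd and Vegfa and the co-receptor Nrp1.

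Vegfd, a ligand of FLT4 like VEGF-C, was at 20.1, 22 and 23.8 CPM in the GFP libraries and at 12.1, 13.6 and 13.2 CPM in the ORAI2 libraries. Every ORAI2 library lay below every GFP library. Vegfd fell 1.70-fold, with a log2 fold change of -0.76 (SE 0.08, edgeR adjusted p = 1.40e-05).

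Vegfa, the main ligand of vessel growth, was at 361, 372 and 392 CPM in the GFP libraries and at 330, 343 and 352 CPM in the ORAI2 libraries. The groups did not overlap, but only a narrow gap lay between 352 and 361 CPM. The fall was small, 1.1-fold (log2 fold change -0.13, SE 0.04, edgeR adjusted p = 0.0186). The call for Vegfa was lost without GFP replicate 3 and without ORAI2 replicate 1 (adjusted p = 0.0655 and 0.0899, range over all alternatives 0.0043 to 0.0899).

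Vegfb, the ligand of FLT1, was at 46.0, 46.7 and 49.0 CPM in the GFP libraries and at 47.3, 47.1 and 45.9 CPM in the ORAI2 libraries. The values were interleaved. Its log2 fold change was -0.01 with a 95% interval from -0.12 to 0.09 (edgeR adjusted p = 0.834). Pgf, the gene of placental growth factor, which also binds FLT1, had 34 to 41 counts in the GFP libraries and 33 to 48 in the ORAI2 libraries. Its 95% interval was wide, from -0.37 to 0.53 around a log2 fold change of 0.08 (adjusted p = 0.788).

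**Figure D1:**
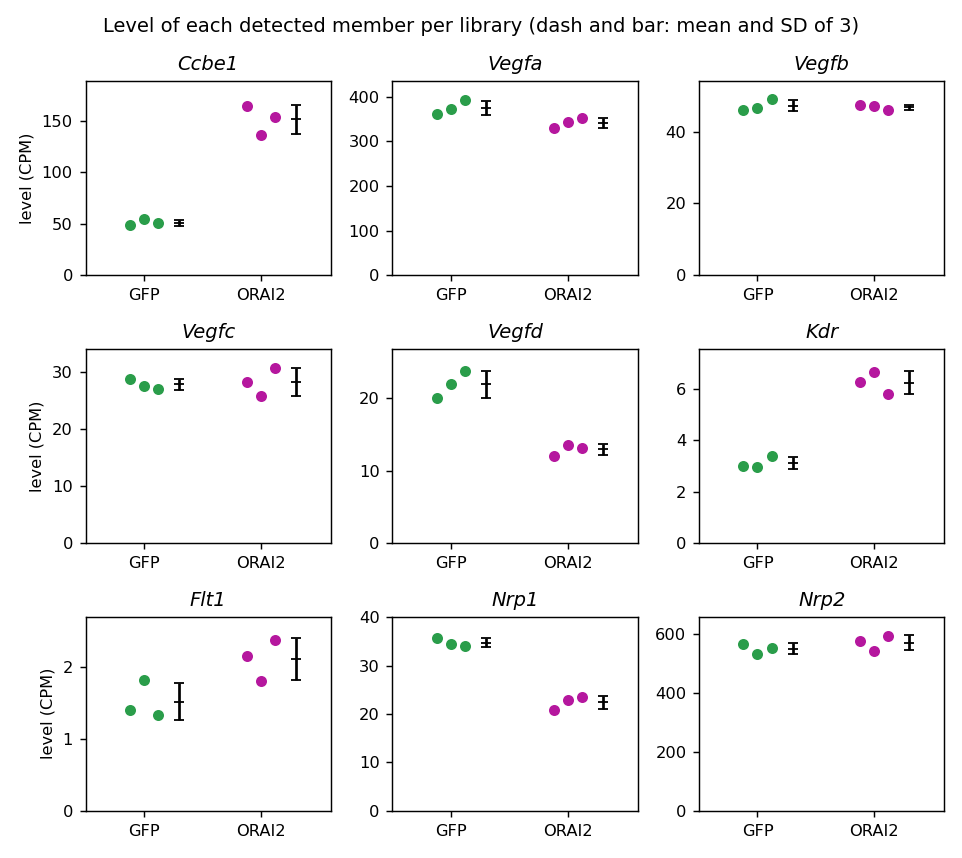
Level in CPM (y axis, starting at 0, a scale of its own for each gene) of the 9 detected members in the 3 GFP libraries (green) and the 3 ORAI2 libraries (magenta), with the mean and SD of each group as a dash and bar. Ccbe1 and Kdr lie higher in ORAI2, Vegfd and Nrp1 lower, and Vegfa slightly lower, whereas the points of Vegfb, Vegfc, Flt1 and Nrp2 overlap between the groups.

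Among the receptors, Kdr was about 2-fold higher in the ORAI2 libraries from a low level. Kdr had 56, 55 and 63 counts with GFP and 116, 125 and 107 counts with ORAI2, or 3.01, 2.94 and 3.37 CPM against 6.25, 6.67 and 5.79 CPM. No ORAI2 library reached down to the GFP range. The mean went from 3.11 ± 0.23 to 6.24 ± 0.44 CPM (SD, n = 3 each), with a log2 fold change of 1.00 (SE 0.13), which ranked 141 from the top of 13764.

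Flt1, the other VEGF-A receptor and a decoy in its soluble form, was scarcer still, with 26, 34 and 25 counts in the GFP group and 40, 34 and 44 counts in the ORAI2 group. GFP replicate 2 and ORAI2 replicate 2 had equal counts, so the groups overlapped. The log2 fold change was 0.48 (95% interval 0.01 to 0.95), with an unadjusted p of 0.0473 and an adjusted p of 0.0951 (edgeR), which did not pass.

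The co-receptors differed from each other. Nrp1, which binds VEGF-A and semaphorin 3A, was at 35.7, 34.4 and 34.0 CPM in the GFP libraries and at 20.9, 22.8 and 23.5 CPM in the ORAI2 libraries. The groups were well apart, and Nrp1 fell 1.55-fold (log2 fold change -0.63, SE 0.06, edgeR adjusted p = 5.19e-06). A microRNA gene, Mir1903, overlaps an exon of Nrp1 in the annotation. Nrp2, which binds VEGF-C and semaphorin 3F, was at 567, 531 and 552 CPM in the GFP libraries and at 576, 542 and 592 CPM in the ORAI2 libraries. These ranges overlapped, with a log2 fold change of 0.05 (95% interval -0.04 to 0.14, adjusted p = 0.335). The intervals of the log2 fold changes of Nrp1 (-0.76 to -0.50) and Nrp2 do not overlap, but the difference between these genes was not tested.

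**Figure D2:**
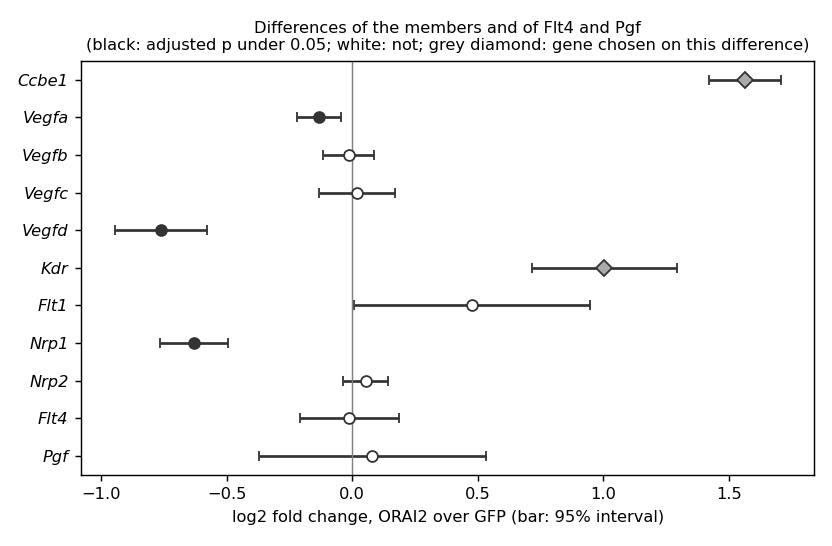
Log2 fold change of ORAI2 over GFP (x axis) with its 95% interval for 9 members and for Flt4 and Pgf (y axis), black where the adjusted p was under 0.05, white where it was not, and grey diamonds for Ccbe1 and Kdr, which were chosen on this difference. The values run from -0.76 for Vegfd to 1.56 for Ccbe1, and the intervals of Flt1 and Pgf are the widest of those shown.

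Levels were compared between genes as CPM per kilobase of the longest coding transcript in GENCODE. In the GFP libraries the order was Vegfa (109 ± 4.62 CPM per kilobase), Nrp2 (81.8 ± 2.70), Vegfb (36.9 ± 1.24), Vegfc (11.4 ± 0.37), Vegfd (10.7 ± 0.89), Nrp1 (9.65 ± 0.26), Ccbe1 (7.79 ± 0.44), Kdr (0.524 ± 0.04) and Flt1 (0.220 ± 0.04; all SD, n = 3). Vegfc and Vegfd overlapped between libraries, as did Vegfd and Nrp1, so these neighbours in the order were not separated. In the ORAI2 libraries Ccbe1, at 23.0 ± 2.21 CPM per kilobase, stood between Vegfb (36.5 ± 0.58) and Vegfc (11.6 ± 1.02). Vegfd and Nrp1 were then level, at 6.32 ± 0.38 and 6.23 ± 0.38. Kdr reached 1.05 ± 0.07 and Flt1 0.307 ± 0.04 CPM per kilobase. Several members have more than 1 coding transcript, and with shorter transcripts the values per kilobase would be higher.

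**Figure D3:**
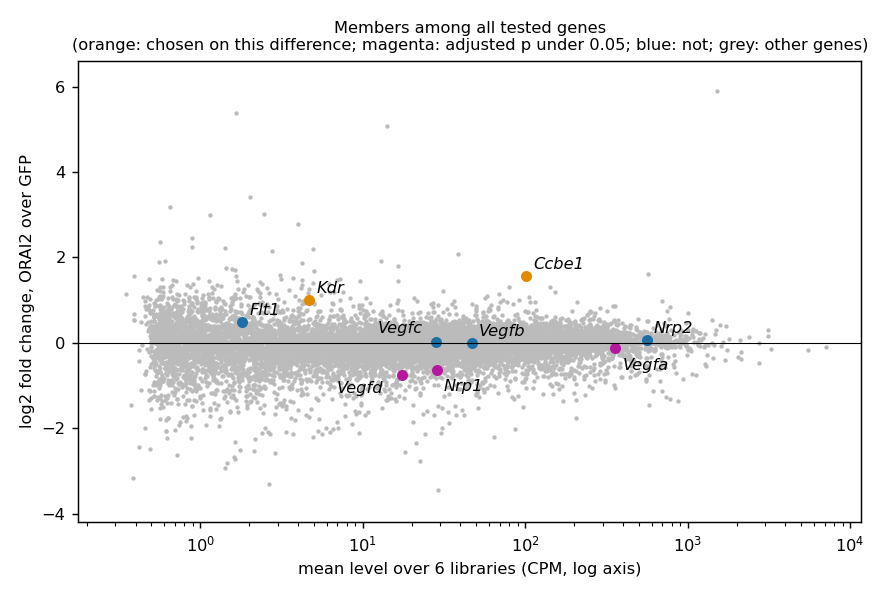
Log2 fold change of ORAI2 over GFP (y axis) against the mean level over 6 libraries (x axis, CPM, log scale) for all 13764 tested genes (grey), with the members labelled. Ccbe1 and Kdr (orange, chosen on this difference) lie at 1.56 and 1.00, Vegfd, Nrp1 and Vegfa (magenta) passed the test, and Vegfb, Vegfc, Flt1 and Nrp2 (blue) did not.

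KDR and FLT1 are typical of endothelial cells, so markers of those cells were read beside them. Of 17 endothelial markers in the table, 5 were tested, of which Vwf rose, Eng and Erg fell, and Plvap and Egfl7 did not pass. Vwf, von Willebrand factor, rose 2.76-fold from 3.70 ± 1.12 to 10.2 ± 1.08 CPM (edgeR adjusted p = 1.84e-05). Eng, the TGF-beta co-receptor endoglin, was 1.23-fold lower from 50.02 ± 3.07 CPM, and Erg, an endothelial transcription factor, 2.14-fold lower from 1.73 ± 0.49 CPM (adjusted p = 7.86e-04 and 0.0117). Most of the other markers were at or near 0. Cdh5 had at most 3 counts in a library, Pecam1 at most 7, Cldn5 and Robo4 at most 1, and Emcn and Sox17 none. Tek, Mmrn2, Clec14a and Sox18 had at most 5, 4, 2 and 1. Esam had 6 counts in each GFP library and 5 to 12 in the ORAI2 libraries. Tal1 was higher in every ORAI2 library, with 5, 10 and 12 counts against 2, 2 and 3 with GFP. Both lay under the filter and were not tested. The summed level of the 17 was 66.0 to 72.0 CPM in the GFP libraries and 65.0 to 67.9 CPM in the ORAI2 libraries. Most of that sum was Eng, at 50.02 ± 3.07 CPM with GFP and 40.7 ± 1.1 CPM with ORAI2. In such bulk samples, fewer cells of a type and less RNA per cell cannot be told apart.

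Of 6 markers of lymphatic endothelium in the table, Prox1, Lyve1, Mmrn1 and Reln had at most 2 counts in a library, Flt4 did not pass, and Pdpn rose. Pdpn, the membrane glycoprotein podoplanin, which fibroblasts and osteocytes also make, went from 94.0 ± 7.25 to 213 ± 13.6 CPM (2.26-fold, edgeR adjusted p = 1.91e-08). The sum of the 6 was 97.1 to 110 CPM in the GFP libraries and 210 to 237 CPM in the ORAI2 libraries, nearly all of it Pdpn. Macrophage markers in the table, 8 in number, summed to 52.0 to 56.3 CPM in the GFP libraries and 26.7 to 36 CPM in the ORAI2 libraries. Nearly all of that sum was Cd14 (39.8 and 25.5 CPM on average) and Mpeg1 (11.9 and 3.62 CPM). Cd68 had 41, 50 and 35 counts with GFP and 34, 46 and 26 with ORAI2, and did not pass (edgeR adjusted p = 0.438). The markers Ptprc, Csf1r, Aif1, Itgam and Lyz2 had at most 2, 4, 1, 2 and 8 counts in a library. The sum does not show whether macrophages were present. The part of such cells in the members' values was not tested. Pericyte and smooth muscle markers summed to 122 to 138 CPM in the GFP libraries and 115 to 125 CPM in the ORAI2 libraries, nearly all of it Cspg4. Within that list Tagln rose from 1.95 ± 0.44 to 5.56 ± 0.83 CPM and Notch3 fell from 13.3 ± 1.26 to 6.26 ± 0.24 CPM (edgeR adjusted p = 3.80e-05 and 3.40e-06). Epithelial markers summed to 2.73 to 3.75 and 4.22 to 5.12 CPM. Among them Grhl2 rose from 0.50 ± 0.19 to 2.36 ± 0.65 CPM (edgeR adjusted p = 1.31e-04), Krt18 did not pass and Epcam had no count. Osteoblast markers summed to 637 to 770 and 552 to 674 CPM, most of it Spp1 (612 ± 73.9 and 545 ± 55.6 CPM). The 3 tested, Spp1, Runx2 and Alpl, did not pass. Alpl had 6 to 19 counts in a library, and Sp7 and Bglap had at most 3 and 4.

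Related genes were read from 9 lists with 131 genes in all, of which 109 were tested. Of these, 27 rose, 41 fell and 41 did not pass, beside the 42.9% of all genes called. The median log2 fold change was -0.015 over the lists and -0.002 over all tested genes.

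The list of VEGF-C and VEGF-D processing holds proteases, the protease inhibitor TIMP3, an enzyme that cuts heparan sulfate and a matrix proteoglycan. Of 10 tested, 2 rose, 5 fell and 3 did not pass, with a median log2 fold change of -0.33. Timp3, an inhibitor of matrix proteases that also blocks VEGF-A binding to KDR, was 1.52-fold lower from 815 ± 51.8 to 535 ± 33.7 CPM (edgeR adjusted p = 2.02e-06). Hspg2, the matrix proteoglycan perlecan, was 1.35-fold lower from 957 ± 25.7 CPM (adjusted p = 3.76e-06). Hpse, the enzyme that cuts heparan sulfate, and Plat, an activator of plasminogen, had log2 fold changes of -0.47 and -0.22 (adjusted p = 0.00209 and 0.00681). Furin, the convertase that makes the first cut in pro-VEGF-C, rose 1.17-fold from 65.9 ± 6.51 to 77.1 ± 1.33 CPM (adjusted p = 0.00896), and Ctsd, the protease cathepsin D, differed by 0.11 on the log2 scale (adjusted p = 0.0227).

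Of 12 tested class 3 semaphorins, plexins and cell adhesion partners of the neuropilins, 6 rose, 4 fell and 2 did not pass (median log2 fold change 0.16). Sema3f, a ligand of NRP2, fell 1.77-fold from 45.6 ± 1.55 to 25.7 ± 0.48 CPM (edgeR adjusted p = 1.33e-07). Sema3a, the ligand of NRP1, was at 28.5 ± 3.18 and 19.1 ± 0.94 CPM, 1.49-fold lower (adjusted p = 1.19e-04). The semaphorins Sema3g and Sema3e rose, with log2 fold changes of 0.76 and 0.49 (adjusted p = 1.18e-04 and 0.00361). The plexins, which carry the signal of semaphorins into the cell, moved both ways. Plxna3 was 1.45-fold lower from 62.7 ± 2.67 CPM and Plxna2 rose 1.63-fold from 16.8 ± 1.05 CPM (adjusted p = 6.89e-06 and 1.03e-05). Nrcam, an adhesion molecule, rose 2.07-fold from 6.86 ± 0.97 to 14.2 ± 1.76 CPM (adjusted p = 1.97e-05).

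Of 33 tested genes of VEGF receptor signalling and its phosphatases, 7 rose, 13 fell and 13 did not pass, with a median log2 fold change of -0.03. Grb10, an adaptor that binds receptor kinases, had a log2 fold change of -0.49, Mapkapk2, a kinase below p38, -0.52 and Ptpn1, a phosphatase that acts on KDR, -0.36 (edgeR adjusted p = 4.70e-07, 8.74e-07 and 1.63e-05). Src rose, with a log2 fold change of 0.34 (adjusted p = 2.04e-05). Plcg1, the phospholipase that KDR recruits, was at 50.2 ± 2.49 and 52.4 ± 1.56 CPM and did not pass (adjusted p = 0.351). The endothelial members Ptprb and Nos3 had at most 4 counts in a library.

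Of 15 tested regulators of oxygen sensing, which set Vegfa transcription, 1 rose, 4 fell and 10 did not pass (median log2 fold change -0.01). Hif1a, the oxygen-regulated activator, fell 1.38-fold from 847 ± 46.3 to 614 ± 41.2 CPM (edgeR adjusted p = 1.62e-05). Its partner Arnt had a log2 fold change of -0.15 and the hydroxylase Egln3, itself induced by low oxygen, -0.45 (adjusted p = 0.00664 and 0.00140). Hif1an, an inhibitor of HIF1A, rose by 0.23 on the log2 scale (adjusted p = 2.09e-04). Vhl and Egln1, which mark HIF1A for destruction, did not pass.

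Of 18 tested lymphatic regulators, 7 rose, 8 fell and 3 did not pass (median log2 fold change -0.07). Beside Pdpn, Rasa1, which restrains RAS, rose with a log2 fold change of 0.57 from 99.0 ± 2.75 CPM (edgeR adjusted p = 1.17e-06). Ackr3, the scavenger of adrenomedullin and CXCL12, was 4.31-fold lower, and Emilin1, a matrix glycoprotein of lymphatic valves, 2.11-fold lower from 52.0 ± 0.75 to 24.7 ± 2.69 CPM (adjusted p = 1.19e-07). Of 9 tested angiopoietin and ephrin genes, 2 rose, 2 fell and 5 did not pass (median 0.03). Efnb2, the ephrin of arteries and lymphatic valves that helps VEGF receptors to be taken up, rose 1.74-fold from 49.9 ± 3.36 to 87.0 ± 6.83 CPM (adjusted p = 8.23e-07). Epha2 rose 1.46-fold, and Efna1 fell by 0.42 on the log2 scale (adjusted p = 6.18e-07 and 3.01e-04). Svep1, a matrix protein required for lymphatic vessels, fell 2.38-fold from 23.6 ± 2.15 to 9.88 ± 1.66 CPM (adjusted p = 2.07e-06).

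Of 10 tested genes in the list of secreted inhibitors of angiogenesis, 2 rose, 5 fell and 3 did not pass, with a median log2 fold change of -0.41. Thbs1 and Thbs2, the thrombospondins, were 2.73-fold and 2.08-fold lower, from 849 ± 100 and 486 ± 22.8 CPM (edgeR adjusted p = 1.57e-08 and 1.98e-08). Sparc, which binds VEGF-A, had a log2 fold change of -0.85, and Serpinf1, pigment epithelium-derived factor, -0.74 (adjusted p = 6.79e-09 and 5.45e-05). Vash2, a vasohibin known, unlike Vash1, for promoting angiogenesis although the list holds it, rose with a log2 fold change of 0.45, and so did Ccn2, a matrix protein that binds VEGF-A, with 0.24 (adjusted p = 1.62e-04 and 0.00160).

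**Figure D4:**
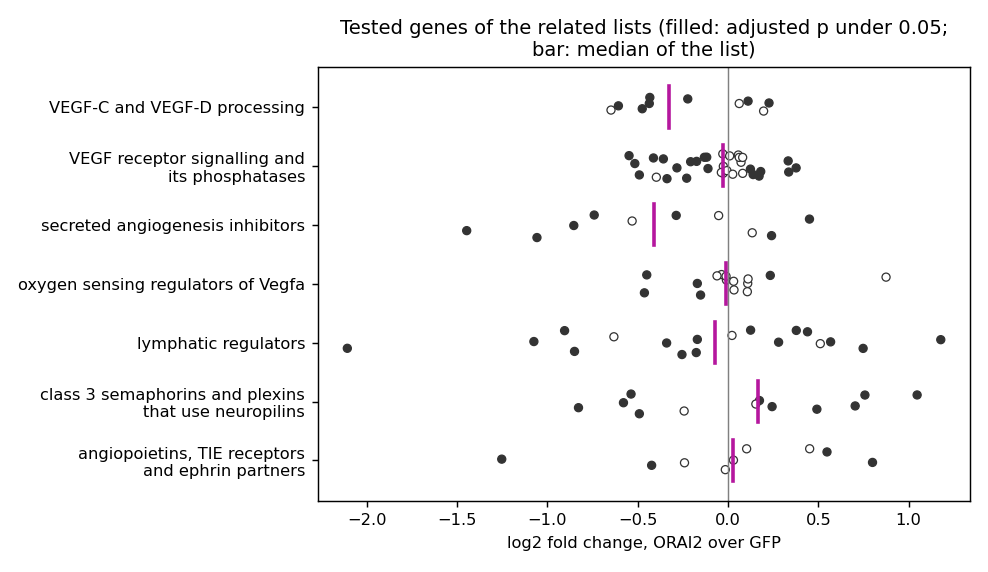
Log2 fold change of ORAI2 over GFP (x axis) of each tested gene in 7 related lists (y axis), filled where the adjusted p was under 0.05, with the median of each list as a magenta bar. Genes lie on both sides of 0 in every list shown, and the medians run from -0.41 for secreted inhibitors of angiogenesis to 0.16 for semaphorins and plexins.

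The genes most like Ccbe1 and Kdr over the 6 libraries were found by the root mean square distance between log2 CPM values centred on each gene's mean. The search covered tested genes that averaged 5 CPM or more. Genes without a symbol, or with the symbol of a predicted or unnamed gene (such as Gm with a number, or Rik), were left out. This likeness rests mainly on the difference between the groups and says nothing of shared control. Hmga2, a chromatin protein of growing cells, was nearest to Ccbe1 at a distance of 0.076, followed by Wincr1 (0.119), Dusp4 (0.147), Fosl1 (0.153) and Hgsnat (0.168). These genes were between 2.47-fold (Fosl1) and 3.04-fold (Hmga2) higher. Lonrf3 was nearest to Kdr at 0.063, followed by Serpinb9c (0.066), Nrcam (0.077) and Chka (0.089), which encodes choline kinase. These 4 genes near Kdr were between 1.92-fold (Chka) and 2.07-fold (Nrcam) higher.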

How the data were processed

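RNA sequencing counts of 6 libraries, 3 per group by their titles, were analysed. The submitters' processing notes name HISAT2 2.0.4, the build GRCm39 and Salmon 1.4.0, without saying what each was for. Annotation and strand use were not given in the sources used here. For each gene and library, the authors deposited counts (whole numbers) and TPM values (per the file headers). The deposited TPM columns correlated best with count columns of another number and entered no test. The best correlations were 0.463 to 0.809, except for the TPM column named ORAI2-3. That column followed no count column closely, with at most 0.177, for ORAI2 replicate 1.

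Entrez numbers were paired with symbols from RefSeq on GRCm38.p6 (25631 of 26532, 96.6%). Counts were tested with edgeR 4.0.16 in R 4.3.3 (quasi-likelihood F-test, TMM, filterByExpr with a minimum count of 10, group as the only term), which left 13764 genes. Standard errors derive from the F statistic. The 95% intervals are not adjusted. CPM values are TMM scaled.

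The members and lists were chosen with earlier results of these data known. Named were all members, Orai2, up to 4 called genes of the smallest p from each list, called endothelial markers and the 5 genes most like Ccbe1 and Kdr; others were named after their values were seen. A gene that the rule takes is not reported here. Alternatives were RLE, upper quartile and library-size scaling, no filter, keeping genes with 5 CPM in 3 libraries, limma-voom (limma 3.58.1), DESeq2 1.42.0, the replicate number as a block, and each library left out. The test was also run on simulated counts of 13522 genes, modelled on these libraries, with 50 genes changed at each of 4 folds. There edgeR recovered 50% of genes changed 1.2-fold, 78% at 1.5-fold, 84% at 2-fold and 96% at 4-fold, and 7.23% of calls were false. In the data 42.9% of genes were called, a far larger share than was changed in the simulation. Adjusted p depends on that share, so these rates need not hold for the ORAI2 against GFP comparison. Within a group, no library was a copy of another (chi-square per gene 2.62 to 4.75).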

Additional observations from a re-analysis of the deposited data

Results flagged for a closer look

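In the deposited TPM columns, which no test used, Ccbe1 was at 45.07, 51.55 and 52.45 TPM in the columns named ORAI2 and at 18.32, 17.38 and 15.17 TPM in those named GFP. Ccbe1 was chosen on this difference and the columns come from the same study, so these values are a description and no independent support. The TPM column named ORAI2-3 held only 36.33 TPM of Orai2, within the range of 24.83 to 38.19 TPM in the GFP columns, so the library behind it could not be told from its name. Of the other members whose counts did not overlap between the groups, Kdr, Vegfd and Vegfa overlapped in TPM and Nrp1 did not. Kdr was at 2.15, 1.87 and 0.65 TPM in the ORAI2 columns and at 0.96, 1.11 and 0.07 TPM in the GFP columns. Vegfd was at 15.92, 15.24 and 29.43 TPM against 26.34, 30.43 and 48.56 TPM, and Vegfa at 208.42, 214.42 and 215.95 TPM against 228.67, 246.28 and 161.8 TPM. Nrp1, at 7.34, 7.61 and 9.22 TPM against 11.96, 12.21 and 24.21 TPM, was lower in all 3 ORAI2 columns. Adamts3, which had no count in any count column, was listed at 0.03 TPM in the TPM column named ORAI2-3 and at 0 in the others.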

How the results depend on the processing

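Vegfd and Nrp1 kept their direction and their side of the threshold in all 14 alternatives, with log2 fold changes from -0.82 to -0.70 and -0.66 to -0.58. The log2 fold changes of Ccbe1 and Kdr, which were chosen on this difference and are given as a description, ranged from 1.505 to 1.64 and from 0.96 to 1.06. Flt1 and Nrp2 did not pass in any alternative run (13 for Flt1, which a filter at 5 CPM removes, and 14 for Nrp2). Vegfa lost its call as given above. Vegfb and Vegfc, which did not pass, changed sign: Vegfc was at -3.2e-05 with upper quartile scaling, and with 1 library left out Vegfb ranged from -0.034 to 0.012 and Vegfc from -0.038 to 0.088. Genes called higher numbered 2354 to 2734 and lower 2568 to 2927 with 1 library left out, 2570 and 3344 with upper quartile scaling, and 2379 and 2446 with DESeq2. The replicate number as a block gave 3048 genes called higher and 3198 lower, against 2869 and 3040 without the block, and changed no member's call. Deviations of same-numbered libraries correlated at 0.136, 0.073 and 0.126, each library best with its own number, which is a hint from the data and not from the design. Counts of Kdr, Flt1 and Pgf limit their precision.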

Other observations

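The genes next to 4 members on the chromosome, read from the RefSeq gene order, were at the following levels. Kdr lies between Kit and Srd5a3. Kit, a receptor kinase, had at most 1 count in a library, Srd5a3 was at 30.4 ± 1.82 and 31.5 ± 1.03 CPM and did not pass (adjusted p = 0.541, edgeR), and Pdgfra, the next gene beyond Kit, fell from 43.3 ± 1.65 to 28.0 ± 1.95 CPM (log2 fold change -0.63, adjusted p = 4.35e-06). Next to Ccbe1, Lman1, a cargo receptor of the secretory pathway, fell from 192 ± 5.44 to 169 ± 4.92 CPM (adjusted p = 0.00186), and Pmaip1, the cell death gene NOXA, rose from 31.7 ± 1.27 to 38.7 ± 1.65 CPM (adjusted p = 0.00117). Next to Vegfd, Pir fell from 8.93 ± 0.96 to 5.21 ± 0.66 CPM (log2 fold change -0.78, adjusted p = 3.00e-04) and Piga was at 29.6 CPM in both groups. Next to Nrp1, Pard3, a cell polarity gene, rose from 175 ± 1.65 to 196 ± 9.51 CPM (adjusted p = 0.00522), and Itgb1, the beta subunit of many integrins, was at 929 ± 31.6 and 922 ± 12.4 CPM (adjusted p = 0.818).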
